A study of Mus musculus with 8 samples.

Results

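Macrophages given spermine and then 3 h of IFN-β were compared with macrophages given neither. The cells are macrophages grown from mouse bone marrow, immune cells that engulf and sense microbes, in 4 groups of 2 libraries each. PBS 0 h had received PBS, a salt buffer, and no IFN-β, and is here called untreated. The labels name PBS as the control of spermine, while the series text names DMSO. PBS 3 h had received PBS and 3 h of IFN-β, spermine 0 h had received spermine and no IFN-β, and spermine 3 h had received spermine and 3 h of IFN-β. The comparison takes 4 of the 8 libraries, spermine 3 h against PBS 0 h, and the other groups are set beside it. It covers all genes with at least 1 FPKM (fragments per kilobase of gene and unit of library depth, on the authors' scale) in at least 2 of the 8 libraries, which were 11421 of the 54532 genes in the table. By that rule Gm43815, at 1.0004 FPKM in its second-highest library, was the last gene inside and C1rl, at 0.9997, the first outside. The spermine dose and exposure time, the IFN-β dose and the mice or cultures used were not given in any source used here. The p-values therefore rest on the spread between these libraries, which may be only technical. No group spent 3 h without IFN-β, so spermine, IFN-β and those 3 h change together in this comparison and cannot be told apart in it.

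IFN-β binds a receptor made of Ifnar1 and Ifnar2, whose bound kinases Jak1 and Tyk2 phosphorylate STAT proteins. Stat2 and Irf9 belong to the transcription factor ISGF3, which binds the interferon-stimulated response element and switches on antiviral genes, among them its own parts and the inhibitors that end the signal. Spermine is a positively charged polyamine made by nearly all cells, and its level is held by the enzyme that starts its synthesis, Odc1, and enzymes that break it down, such as Sat1 and Smox. Macrophages both send and answer type I interferon during viral infection. The series title names JAK1 as the protein on which spermine acts.

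The 250 bases upstream of the start sites of 4 genes that carry the result are printed 5′ to 3′ on the gene's strand, from RefSeq on GRCm38.p6. Capitals mark matches on either strand to the interferon-stimulated response element (TTTC, any 2 bases, TTTC) or to the core of the antioxidant response element that NRF2 binds (TGAC, any 3 bases, GC). Rsad2, Isg15 and Cxcl10 are shown as strongly rising interferon genes and Gclm as a glutathione gene that rose with spermine.
Rsad2, chr12:26456453-26456702, minus strand: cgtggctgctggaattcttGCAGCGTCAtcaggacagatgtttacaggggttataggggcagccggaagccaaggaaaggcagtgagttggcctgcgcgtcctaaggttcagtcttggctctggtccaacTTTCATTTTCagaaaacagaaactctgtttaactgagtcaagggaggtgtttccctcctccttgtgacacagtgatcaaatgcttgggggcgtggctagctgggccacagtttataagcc
Isg15, chr4:156200819-156201068, minus strand: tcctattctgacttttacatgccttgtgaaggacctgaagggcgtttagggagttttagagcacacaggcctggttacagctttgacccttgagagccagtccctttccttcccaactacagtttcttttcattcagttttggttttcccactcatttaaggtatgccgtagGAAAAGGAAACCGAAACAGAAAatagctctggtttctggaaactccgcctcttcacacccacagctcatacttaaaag
Cxcl10, chr5:92348890-92349139, minus strand: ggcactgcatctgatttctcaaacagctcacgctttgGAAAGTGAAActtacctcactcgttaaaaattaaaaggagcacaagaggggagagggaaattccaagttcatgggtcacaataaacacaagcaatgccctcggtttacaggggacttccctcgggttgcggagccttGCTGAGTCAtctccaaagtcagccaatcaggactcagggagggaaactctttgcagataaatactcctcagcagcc
Gclm, chr3:122245307-122245556, plus strand: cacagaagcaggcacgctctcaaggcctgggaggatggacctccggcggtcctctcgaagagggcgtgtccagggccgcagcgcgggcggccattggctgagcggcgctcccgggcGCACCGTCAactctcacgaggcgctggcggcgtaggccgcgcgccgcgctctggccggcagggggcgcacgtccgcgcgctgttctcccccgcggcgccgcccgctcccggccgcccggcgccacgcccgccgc
In Isg15 the capitals hold 3 overlapping matches to the interferon element, between 78 and 57 bases upstream of the start. Rsad2 has 1 match to that element, with its far end 120 bases upstream, and Cxcl10 has 1, with its far end 213 bases upstream. Rsad2 and Cxcl10 also hold 1 match each to the antioxidant core, and Gclm holds only that one. Of the 8087 tested genes with a promoter in the table, 3.62% had the interferon element in this window and 14.4% the antioxidant core. The interferon element was in 15 of 36 antiviral genes and 9 of 10 interferon-inducible GTPases with a promoter, and the antioxidant core in 6 of 21 NRF2 targets. That core was not particular to NRF2 targets, with 5 of 18 immediate early genes and 5 of 19 lysosome genes. Among the other lists it was in 2 of 5 alternative activation genes, 2 of 8 chemokines and cytokines and 2 of 22 glycolysis genes. A match is a run of letters and was not tested as a binding site.

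The deposited values scale back to whole reads, 15723437 to 17744844 per library. Changes are log2 changes of FPKM + 1, which understate the change of genes near 1 FPKM, and levels in a single gene are FPKM in each library or mean ± SD (n = 2 libraries). The deposited scale holds the median gene steady, so changes are relative to the median gene. Summed FPKM was 248254 and 253576 in PBS 0 h and 404833 and 400534 in spermine 3 h, and rescaling every library to the same sum (TPM) moved the typical change by -0.66. All 8 macrophage markers, Adgre1, Csf1r, Cd68, Mertk, Fcgr1, Itgam, Cd14 and Lyz2, were tested and summed to between 11204 and 13807 FPKM per library. Neutrophil markers (2 of 6 tested) summed to 5.05 to 8.32 FPKM with Ly6g at 0. T and NK cell markers (1 of 6 tested) summed to 2.65 to 4.19 with Cd3e, Cd3d and Ncr1 at 0, and the 4 B cell markers to at most 1.01. Dendritic cell markers (1 of 5 tested, Xcr1) summed to 0.414 and 0.411 in PBS 0 h and to 6.62 and 5.72 in spermine 3 h. Erythroid and platelet markers (1 of 5 tested, Pf4) summed to 25.8 and 22.3 in PBS 0 h and 42.2 and 38.3 in spermine 3 h, with the haemoglobins Hba-a1 and Hbb-bs at 0. Whether other cells contributed to the results was not tested. In bulk libraries fewer cells of a type and less RNA per cell cannot be told apart.

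Which genes stood higher or lower after both agents together? Of the 11421 genes, 6562 (57.5%) differed from untreated cells in limma at an adjusted p under 0.05, 3501 of them higher (30.7%) and 3061 lower (26.8%). The balance depends on the scale, since TPM rescaling gave 1450 higher and 7094 lower and quantile normalization 2441 and 3944. Counts of list members on those scales, given below, are to be read beside these counts over all genes. On this scale a fall cannot pass log2 of the untreated FPKM + 1, so the median gene could change by no less than -2.68, while rises have no such limit. A rise of at least 1 log2 unit was called in 1206 genes (10.6%) and a fall of that size in 558 (4.89%). Of the rises, 144 lay between 3 and 5 units, 47 between 5 and 8 and 9 above 8, against 4 falls between 3 and 5 and none beyond. In 4915 genes (43%) both spermine 3 h libraries lay above both PBS 0 h libraries, and in 4432 (38.8%) both lay below.

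**Figure D1:**
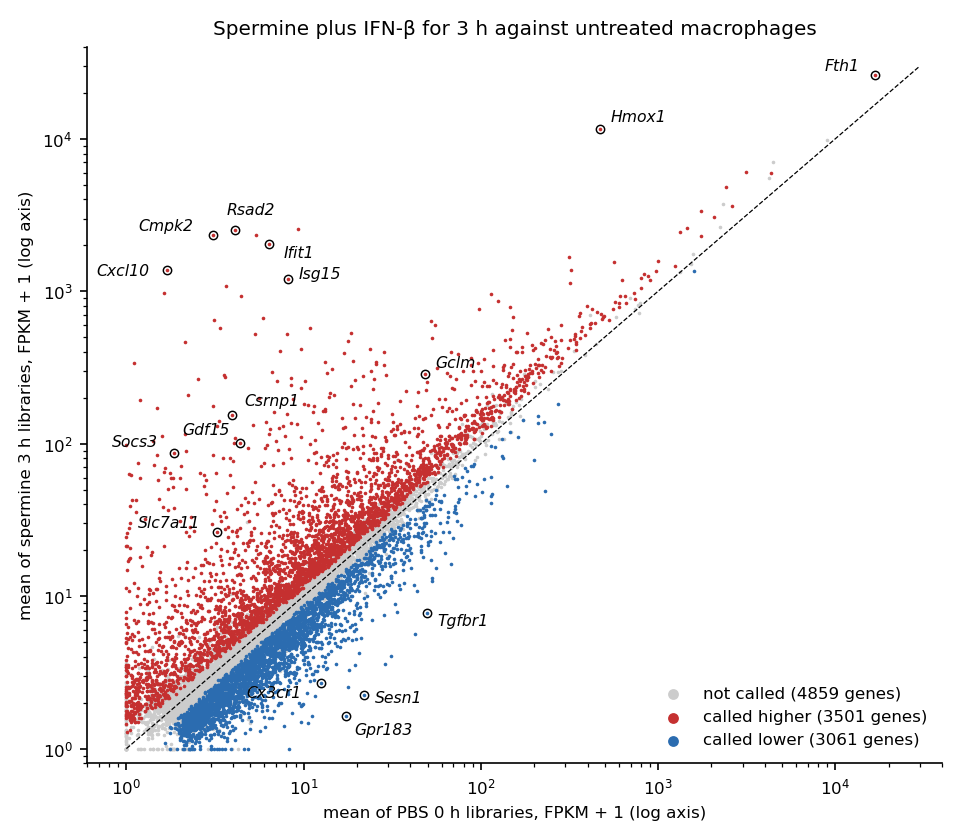
Mean level of each of the 11421 tested genes in untreated macrophages (horizontal, FPKM + 1, log axis) and in macrophages after spermine and 3 h of IFN-β (vertical, same scale); red, blue and grey mark genes called higher (3501), lower (3061) and not called (4859), and the dashed line marks equal levels. Interferon genes such as Rsad2 and Cxcl10 lie far above the line, Hmox1 rises from an already high level, and the genes called lower lie below the line.

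Ranked by level in spermine 3 h among protein-coding genes, the most abundant joined a stress gene and interferon genes to the usual macrophage ones. These genes are named by rank, chosen after their values were seen. Fth1, the heavy chain of the iron store ferritin, was first in both groups, with 16721 ± 662 FPKM in untreated cells and 26009 ± 946 after both agents. Hmox1, which breaks down haem, was second after both agents and 49th in untreated cells. Ifit3 was 14th against 4047th, Rsad2 15th against 7086th, and Cmpk2 17th against 8027th.

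The antiviral genes were all higher after both agents. All 46 tested of 47 listed members rose (median log2 change 4.01, against 0.04 over all genes tested), and 45 still rose after TPM rescaling, with Ifitm1 lost (-0.05). Some interferon genes, such as Ifit1bl1 here and Cxcl10 and Iigp1 in the lists below, passed the level filter only through the IFN-β libraries. Such genes had to differ. The 47 listed antiviral genes took 0.311 ± 0.0168% of reads in untreated cells and 6.53 ± 0.227% in spermine 3 h, beside 10.2 ± 0.589% in PBS 3 h (mean ± SD). The list's median was 4.67 with IFN-β alone and -0.38 with spermine alone. Rsad2 encodes viperin, which makes a chain-ending nucleotide that stops viral polymerases. It stood at 3.23 and 2.92 FPKM in the PBS 0 h libraries, 3.73 and 3.78 in spermine 0 h, 2441 and 2638 in spermine 3 h and 5125 and 4434 in PBS 3 h. Both IFN-β groups lay far above both 0 h groups, and the 2 IFN-β groups did not overlap, with spermine 3 h lower. Its log2 change from untreated cells was 9.28 ± 0.09 SE, adjusted p = 2.35e-08. Cmpk2, a mitochondrial nucleotide kinase encoded next to Rsad2, went from 2.51 and 1.67 to 2328 and 2349 FPKM (log2 change 9.58 ± 0.14 SE, adjusted p = 5.41e-08).

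Isg15 is a small ubiquitin-like protein that is attached to other proteins during infection. It had 6.76 and 7.55 FPKM in PBS 0 h, 6.79 and 9.96 in spermine 0 h, 865 and 1071 in PBS 3 h and 1205 and 1194 in spermine 3 h. The spermine 3 h libraries were the highest of the 8 (log2 change from untreated cells 7.20 ± 0.17 SE, adjusted p = 1.89e-07), while the difference between the 3 h groups was not called (0.32, adjusted p = 0.18). Oasl1, which restrains translation of Irf7, was also highest in spermine 3 h, at 1091 and 1073 FPKM beside 504 and 549.7 in PBS 3 h and 2.93 and 2.38 in PBS 0 h (log2 change from untreated cells 8.22 ± 0.14 SE, adjusted p = 6.41e-08). The Ifit proteins bind foreign RNA and block its translation. Ifit1, Ifit2 and Ifit3 rose by 8.36, 8.74 and 8.10. Ifit1bl1 and Ifit3b rose by 9.23 and 7.77, but they have close relatives, and the sources used here do not say how shared reads were counted. Mx1, a GTPase that traps viral nucleoproteins, went from 2.38 and 1.85 to 631 and 659.8 FPKM (log2 change 7.70 ± 0.12 SE, adjusted p = 6.41e-08).

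The interferon-inducible GTPases attack the vacuoles in which bacteria and parasites live, and all 16 tested of 18 listed members were higher (median 5.77, or 5.92 after TPM rescaling). Iigp1 had 0.112 and 0.0954 FPKM in PBS 0 h and 0.0774 and 0.0881 in spermine 0 h, near nothing in both, and 325 and 353 in spermine 3 h (log2 change 8.27 ± 0.12 SE, adjusted p = 5.17e-08). PBS 3 h stood higher still, at 756 and 589 FPKM. Gbp2 went from 3.85 and 3.06 to 893 and 975 FPKM (log2 change 7.72) and Gbp5, which helps to start inflammasomes, rose by 7.35.

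**Figure D2:**
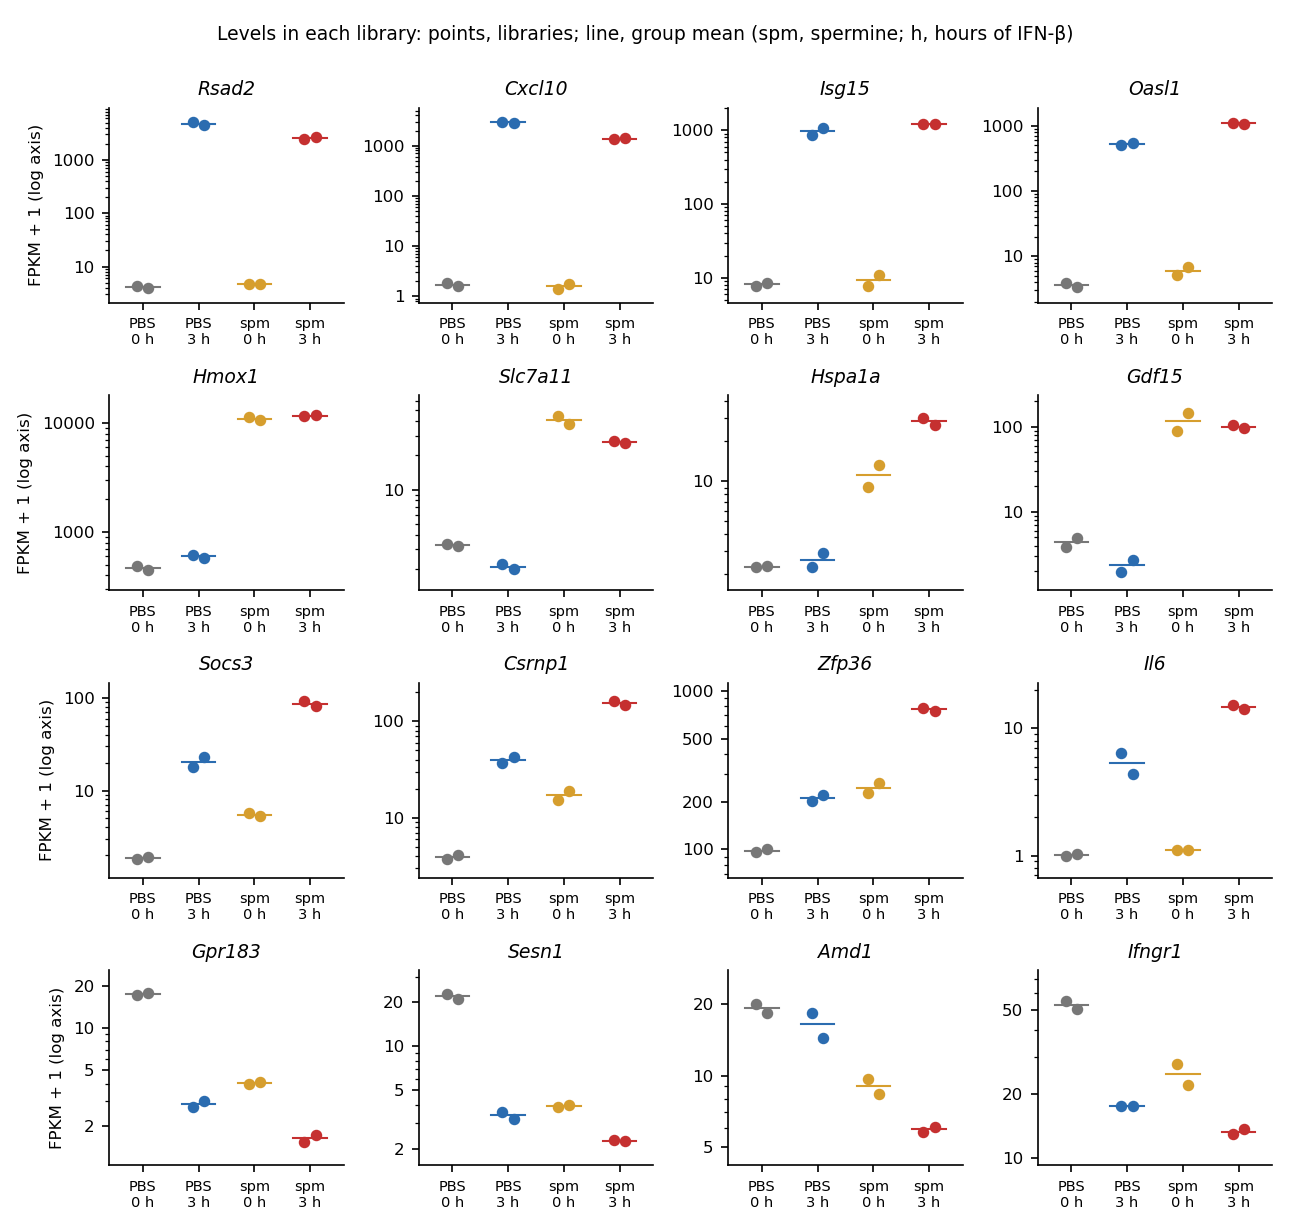
Level of 16 genes in each of the 8 libraries (vertical, FPKM + 1, log axis; each point is 1 library and each line the group mean; spm stands for spermine, and 0 h and 3 h are hours of IFN-β). The top row rises with IFN-β in both arms, Hmox1, Slc7a11 and Gdf15 are high wherever spermine is, Socs3, Csrnp1, Zfp36 and Il6 are highest in spermine 3 h, and the bottom row is lowest there.

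Chemokines and cytokines of the interferon response were higher in 15 of 16 tested members and not called in Cxcl16 (median 3.83). Cxcl10, which draws activated T cells, had 0.834 and 0.573 FPKM in PBS 0 h and 0.429 and 0.781 in spermine 0 h. It reached 1378 and 1386 FPKM in spermine 3 h and 2999 and 2869.6 in PBS 3 h. The 2 IFN-β groups did not overlap, and the change from untreated to spermine 3 h, 9.67 ± 0.12 SE, adjusted p = 2.37e-08, was the largest on the scale of log2(FPKM + 1). Ccl12, a monocyte chemokine, was listed at 0 in all 4 libraries without IFN-β and had 95.6 and 98.2 FPKM in spermine 3 h and 85 and 76.1 in PBS 3 h. Ccl4, which draws monocytes and NK cells, had 7.21 and 5.49 FPKM in PBS 0 h, 18 and 16.4 in spermine 0 h, 683 and 591 in PBS 3 h and 407 and 401 in spermine 3 h (log2 change from untreated cells 5.79 ± 0.13 SE, adjusted p = 1.28e-07). It thus rose in each single step, yet was lower with both agents than with IFN-β alone.

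Of the 17 genes for the interferon receptor, its kinases, STATs and related phosphatases, 11 were higher and 5 lower (median 0.50, which TPM rescaling turned to -0.17 and quantile normalization to -0.05; by TPM 8 higher and 8 lower, by quantile normalization 8 higher and 6 lower). The 5 lower genes were Ifnar1, Ifngr1, Ifngr2, Il10rb and Ptpn6. Jak1 (ENSMUSG00000028530, GRCm38 chromosome 4, 101152367 to 101265282, minus strand) had 30.1 and 28.5 FPKM in PBS 0 h, 37.6 and 35 in PBS 3 h, 37.8 and 33.4 in spermine 0 h and 37.3 and 38.7 in spermine 3 h. Its log2 change from untreated cells was 0.36 ± 0.08 SE, adjusted p = 0.00769, and it was -0.30 by TPM and -0.19 by quantile normalization. Leaving out replicate 2 of PBS 0 h (0.32) or of spermine 3 h (0.34) ended the call. Tyk2, the partner kinase, had 11 and 12 FPKM in PBS 0 h and 9.75 and 9.76 in spermine 3 h. Its change of -0.22 (95% interval -0.54 to 0.10, adjusted p = 0.2) was not called on the deposited scale, but was called at -0.89 after TPM rescaling, at -0.43 after quantile normalization and at -0.22 when these 2 groups were fitted alone. Jak2, the kinase of the IFN-γ receptor, rose from 11.6 and 11.1 to 62.4 and 65 FPKM (log2 change 2.39).

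The 2 chains of the IFN-β receptor moved in opposite directions on the deposited scale. Ifnar1 fell from 39.9 and 36.9 to 28.2 and 30.1 FPKM (log2 change -0.39 ± 0.07 SE, adjusted p = 0.00315). Ifnar2 went from 32 and 31.7 to 44.9 and 46.2 FPKM, a change of 0.50 that TPM rescaling turned to -0.17 and quantile normalization to -0.08. Both chains of the IFN-γ receptor were lower. Ifngr1 had 54.1 and 49.5 FPKM in PBS 0 h, 26.6 and 21.1 in spermine 0 h, 16.5 and 16.5 in PBS 3 h and 11.9 and 12.6 in spermine 3 h, lowest with both agents (log2 change -1.99 ± 0.11 SE, adjusted p = 1.01e-05). Ifngr2 fell by 1.18, from 52 and 49.2 to 21.2 and 22.6 FPKM. Stat2 and Irf9 rose by 3.67 and 2.49. Stat2 had 13.2 and 11.3 FPKM in PBS 0 h, 4.48 and 5.92 in spermine 0 h and 164 and 170.0 in spermine 3 h.

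Interferon regulatory factors and feedback inhibitors were higher in 12 of 15 and lower in 2, Irf3 and Sh2b3 (median 1.91). Irf7, which amplifies interferon production, rose from 22 and 23.3 to 422 and 406 FPKM (log2 change 4.13). Usp18, which removes Isg15 and silences Ifnar2, went from 2.71 and 2.51 to 271 and 275 FPKM (log2 change 6.25 ± 0.06 SE, adjusted p = 2.35e-08). Socs1, an inhibitor of the JAK kinases, had 0.165 and 0.154 FPKM in PBS 0 h, 0.249 and 0.775 in spermine 0 h, 158 and 251 in PBS 3 h and 79.9 and 67.6 in spermine 3 h. Socs3, the inhibitor of Il6-type receptors, had the opposite order of the IFN-β groups. It stood at 0.816 and 0.91 FPKM in PBS 0 h, 4.66 and 4.28 in spermine 0 h, 17.1 and 21.8 in PBS 3 h and 91.7 and 79.9 in spermine 3 h (log2 change from untreated cells 5.54 ± 0.13 SE, adjusted p = 1.54e-07). Irf3, the factor that starts IFN-β transcription, had a change of -0.52 whose call was lost without PBS 0 h replicate 2 (-0.43), without spermine 3 h replicate 1 (-0.60) or 2 (-0.45), or with no filter on low values (-0.52).

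Sensors of foreign nucleic acid, inflammasome parts and executors of lytic death were higher in 21 of 25 and lower in 2 (median 2.46). TPM rescaling gave 17 higher and 3 lower, and quantile normalization 18 and 2. Zbp1, which senses Z-form nucleic acid, rose from 2.35 and 1.81 to 169 and 179.8 FPKM (log2 change 5.84 ± 0.11 SE, adjusted p = 7.9e-08), and the DNA-binding Ifi205 and Ifi209 rose by 5.65 and 5.45. The 2 lower genes on the deposited scale were Tlr2, the receptor for bacterial lipoproteins, and Pycard, the adaptor through which inflammasomes reach caspase-1. Pycard had 4.65 and 4.73 FPKM in PBS 0 h, 5.03 and 4.48 in PBS 3 h, 1.08 and 0.883 in spermine 0 h and 1.33 and 1.69 in spermine 3 h. It was low in all 4 spermine libraries, with no overlap with the PBS libraries (log2 change of spermine 3 h from untreated cells -1.18 ± 0.11 SE, adjusted p = 0.000114).

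Antigen presentation on MHC class I was higher in 20 of 22 members, with none lower on the deposited scale (median 1.73). TPM rescaling and quantile normalization each gave 16 higher and 1 lower (medians 1.14 and 1.17). Tap1, a subunit of the peptide pump, had 12.9 and 13 FPKM in PBS 0 h and 4.92 and 6.04 in spermine 0 h. It had 184 and 218 FPKM in PBS 3 h and 202 and 198 in spermine 3 h, where the libraries of the 2 groups overlap (log2 change of spermine 3 h from untreated cells 3.85 ± 0.11 SE, adjusted p = 4.02e-07). Nlrc5, which switches on the class I genes, and H2-T22, a class I heavy chain, rose by 3.24 and 2.93. Of 11 tested genes of MHC class II and costimulation, 8 were higher and none lower (median 0.62, or -0.06 after TPM rescaling, with 4 higher and 3 lower). Cd274, which encodes the T cell inhibitor PD-L1, went from 10.3 and 9.42 FPKM in PBS 0 h to 556 and 586 in spermine 3 h, above 36.2 and 32.4 in spermine 0 h and 443 and 380.3 in PBS 3 h (log2 change from untreated cells 5.72 ± 0.10 SE, adjusted p = 6.43e-08). The costimulators Cd86 and Tnfsf9 rose by 1.63 and 1.44.

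**Figure D3:**
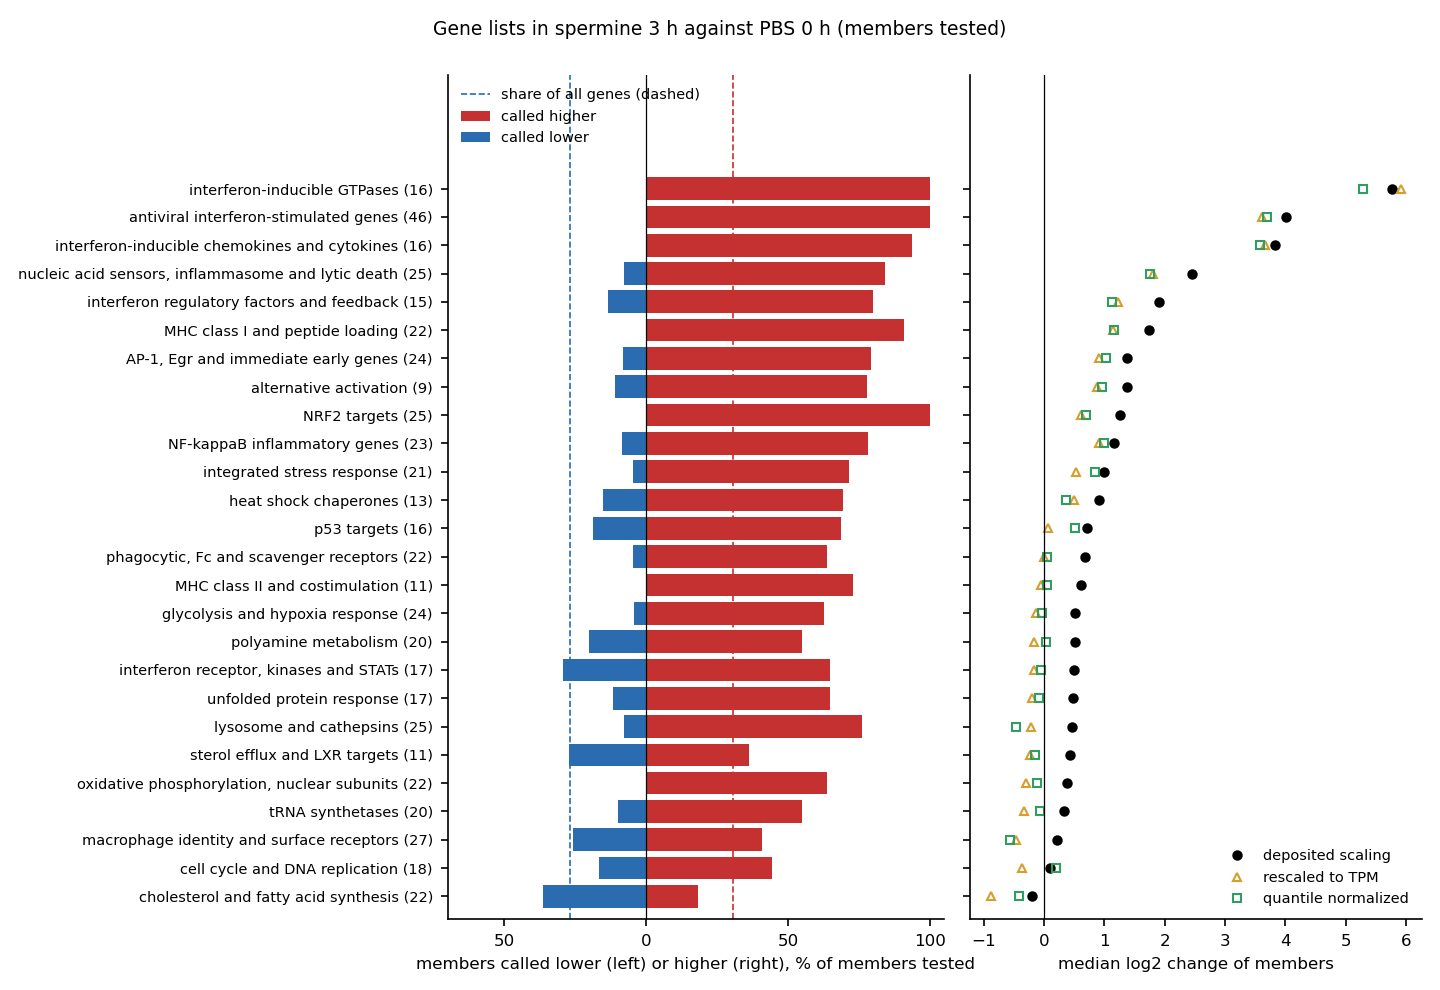
Gene lists in spermine 3 h against PBS 0 h: left, the share of tested members called higher (red) or lower (blue), with dashed lines at the shares over all genes (30.7% and 26.8%) and the number tested in brackets; right, the members' median log2 change with the deposited values (black), TPM (triangles) and quantile-normalized values (squares). Interferon lists and the NRF2 targets lie far to the right of the dashed line, and the medians of the lists between about 0.2 and 0.6 change sign with the scale.

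Alongside the interferon genes, the oxidant defence was higher. All 25 tested NRF2 targets, genes switched on when reactive molecules free the factor NRF2, were higher (median 1.25, or 0.61 after TPM rescaling, where 18 remained called). They took 3.21 ± 0.0622% of reads in PBS 0 h, 2.03 ± 0.109% in PBS 3 h, 7.34 ± 0.198% in spermine 0 h and 5.89 ± 0.0847% in spermine 3 h. Here the list's median was -0.21 with IFN-β alone and 1.76 with spermine alone. Hmox1 (ENSMUSG00000005413, GRCm38 chromosome 8, 75093621 to 75100589) had 490.2 and 449 FPKM in PBS 0 h, 617 and 578 in PBS 3 h, 11283 and 10682 in spermine 0 h and 11541 and 11790.0 in spermine 3 h. The spermine groups lay far above the PBS groups whether or not IFN-β was present (log2 change of spermine 3 h from untreated cells 4.63 ± 0.07 SE, adjusted p = 6.41e-08). Gclm, a subunit of the enzyme that makes glutathione precursors, was likewise high in both spermine groups, with 46.8 and 48.2 FPKM in PBS 0 h, 47 and 47.8 in PBS 3 h, 271 and 280.1 in spermine 0 h and 286 and 286 in spermine 3 h (log2 change 2.57 ± 0.06 SE, adjusted p = 1.33e-07). Nqo1, a quinone reductase, went from 9.45 and 8.4 to 38.7 and 38.3 FPKM (log2 change 1.99). Slc7a11, the cystine importer, had 2.29 and 2.18 FPKM in PBS 0 h, 1.19 and 0.965 in PBS 3 h, 43.9 and 37 in spermine 0 h and 25.7 and 24.9 in spermine 3 h. It was lowest with IFN-β alone and highest with spermine alone, and spermine 3 h lay between spermine 0 h and untreated cells (log2 change from untreated cells 3.02 ± 0.10 SE, adjusted p = 8.55e-07).

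Of 21 tested genes of the integrated stress response, which slows translation when amino acids or folding fail, 15 were higher and 1, Cebpg, lower (median 0.99; by TPM 11 higher and 6 lower, by quantile normalization 15 higher and 1 lower). Gdf15, a secreted stress signal also counted among p53 targets, had 2.83 and 3.94 FPKM in PBS 0 h, 0.928 and 1.74 in PBS 3 h, 89.1 and 146 in spermine 0 h and 103 and 95.9 in spermine 3 h (log2 change from untreated cells 4.53 ± 0.26 SE, adjusted p = 1.25e-05). The spermine groups overlapped each other and lay far above the PBS groups. Ppp1r15a, which restores translation, and Ddit4, a brake on mTORC1, rose by 3.89 and 2.66. Heat shock chaperones were higher in 9 of 13 and lower in 2, Hsf1 and Hspd1 (median 0.90; by TPM 7 higher and 4 lower, by quantile normalization 6 higher and 3 lower). Hspa1a, an inducible chaperone that refolds proteins, had 1.27 and 1.3 FPKM in PBS 0 h, 1.26 and 1.88 in PBS 3 h, 8.06 and 12.3 in spermine 0 h and 29.2 and 25.8 in spermine 3 h, highest with both agents (log2 change 3.64 ± 0.19 SE, adjusted p = 8.48e-06). Hspa1b rose by 3.32, and since the pair is nearly identical, their reads cannot be assigned with certainty. The co-chaperone Dnajb1 rose by 1.38. The call for Hspd1 (-0.50) ended without replicate 1 of PBS 0 h (-0.44) or of spermine 3 h (-0.44). That for Hsf1 (-0.28) was lost without any of the 4 libraries compared (-0.26 to -0.30) and after quantile normalization (-0.19).

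Unfolded protein response genes were higher in 11 of 17 and lower in 2, Herpud1 and Sel1l, with a median of 0.48 that was -0.19 after TPM rescaling and -0.09 after quantile normalization. By count the list then had 1 higher and 7 lower by TPM and 3 higher and 5 lower by quantile normalization. Hspa5, the main chaperone of the endoplasmic reticulum, rose from 78.8 and 77.8 to 301 and 301 FPKM (log2 change 1.93 ± 0.07 SE, adjusted p = 9.7e-07). Herpud1, which helps to clear misfolded proteins, had 5.65 and 5.98 FPKM in PBS 0 h, 1.14 and 1.22 in PBS 3 h, 9.45 and 8.81 in spermine 0 h and 3.98 and 4.88 in spermine 3 h. Its change of -0.33 from untreated cells was lost without PBS 0 h replicate 1 (-0.37) or 2 (-0.30), without spermine 3 h replicate 1 (-0.21), or with no filter on low values (-0.33). Among p53 targets 11 of 16 were higher and 3 lower (median 0.70). TPM rescaling took the median to 0.06, with 7 higher and 4 lower. Quantile normalization took it to 0.51, with 9 higher and 4 lower. Cdkn1a, the inhibitor p21 that halts the cell cycle, went from 48.9 and 53.1 FPKM in PBS 0 h to 638 and 628 in spermine 3 h, above 147 and 159 in spermine 0 h and 295 and 323 in PBS 3 h (log2 change from untreated cells 3.61 ± 0.08 SE, adjusted p = 1.28e-07). On the deposited scale the lower genes were Sesn1, which restrains growth, Zmat3, which binds RNA, and Phlda3, with log2 changes of -3.28, -0.79 and -0.52.

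NF-κB inflammatory genes were higher in 18 of 23 and lower in 2, Nfkbie and Traf1 (median 1.16). TPM rescaling gave 14 higher and 5 lower (median 0.91), and quantile normalization 16 and 2 (median 0.99). Il6, the fever cytokine, had 0 and 0.0204 FPKM in PBS 0 h, 0.0995 and 0.113 in spermine 0 h, 5.4 and 3.37 in PBS 3 h and 14.4 and 13.3 in spermine 3 h. Both spermine 3 h libraries lay above the other 6, and the gene passed the level filter only through the IFN-β libraries. Ptgs2, the inducible prostaglandin synthase, had 0.334 and 0.455 FPKM in PBS 0 h, 2.6 and 2.15 in PBS 3 h, 12.9 and 11.9 in spermine 0 h and 18 and 18.6 in spermine 3 h (log2 change from untreated cells 3.79 ± 0.09 SE, adjusted p = 2.28e-07). Cd40, a receptor through which T cells activate macrophages, went from 0.615 and 0.612 to 37 and 37.4 FPKM (log2 change 4.56). The call for Traf1 (-0.36) was lost without PBS 0 h replicate 1 (-0.39) or 2 (-0.34), without spermine 3 h replicate 2 (-0.31), or after quantile normalization (-0.25). Of 24 AP-1, Egr and other immediate early genes, 19 were higher and 2 lower, Myc and Dusp6 (median 1.37). TPM rescaling gave 15 higher and 4 lower (median 0.91), and quantile normalization 15 and 3 (median 1.03). Dusp1, a phosphatase that switches off p38, had 24.9 and 30 FPKM in PBS 0 h, 34.7 and 44.4 in PBS 3 h, 215 and 266 in spermine 0 h and 424 and 376 in spermine 3 h (log2 change from untreated cells 3.82 ± 0.16 SE, adjusted p = 2.51e-06). Fosl1, an AP-1 subunit, rose by 2.84. The calls for Myc (-0.41) and Dusp6 (-0.30) were lost with no filter on low values (-0.41 and -0.30). That for Myc was also lost without PBS 0 h replicate 2 (-0.28), without spermine 3 h replicate 1 (-0.43) or 2 (-0.39) and after quantile normalization (-0.35). That for Dusp6 was lost without PBS 0 h replicate 2 (-0.23), without spermine 3 h replicate 2 (-0.21) and when the 2 groups were fitted alone (-0.30).

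Genes of polyamine metabolism included both higher and lower ones, beside 30.7% higher and 26.8% lower over all genes. Of 20 tested, 11 were higher and 4, Amd1, Srm, Atp13a2 and Atp13a3, lower (median 0.51, or -0.16 after TPM rescaling, with 6 higher and 8 lower). Odc1, which makes putrescine, the first polyamine, had 17 and 17.9 FPKM in PBS 0 h, 24 and 21.4 in PBS 3 h, 45.1 and 43.5 in spermine 0 h and 44.8 and 44.5 in spermine 3 h (log2 change from untreated cells 1.31 ± 0.07 SE, adjusted p = 1.05e-05). Amd1, which supplies the aminopropyl groups for spermidine and spermine, had 19.1 and 17.3 FPKM in PBS 0 h, 17.4 and 13.4 in PBS 3 h, 8.68 and 7.37 in spermine 0 h and 4.82 and 5.06 in spermine 3 h. It was lowest with both agents, and the spermine and PBS groups did not overlap (log2 change from untreated cells -1.69 ± 0.13 SE, adjusted p = 5.35e-05). The enzymes that break spermine down were higher, Sat1 at 299.8 and 301 FPKM against 101 and 96.4 (log2 change 1.60 ± 0.07 SE, adjusted p = 2.49e-06) and Smox at 72.8 and 66.1 against 12.5 and 16.1 (log2 change 2.21 ± 0.18 SE, adjusted p = 7.39e-05). Each agent alone also raised both. Sat1 had 161 and 154 FPKM in spermine 0 h and 220 and 202 in PBS 3 h. Smox had 25.3 and 31.4 FPKM in spermine 0 h and 27.2 and 37.3 in PBS 3 h. Atp13a2, which pumps polyamines out of lysosomes, fell by 0.87, from 62.2 and 79.5 to 38 and 38.2 FPKM. Slc3a2, a transporter chain shared with the amino acid importers, and Ass1, an enzyme of arginine synthesis, rose by 1.81 and 1.78.

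Of 24 genes of glycolysis and the hypoxia response, 15 were higher and 1, Egln3, lower, with a median of 0.52 that was -0.13 after TPM rescaling and -0.03 after quantile normalization. By count the list then had 8 higher and 8 lower by TPM and 8 higher and 9 lower by quantile normalization. Pfkfb3, which makes the activator of phosphofructokinase, rose from 5 and 4.97 FPKM in PBS 0 h to 71.9 and 75.6 in spermine 3 h, beside 21.9 and 21.1 in spermine 0 h and 45.6 and 43.3 in PBS 3 h (log2 change from untreated cells 3.64 ± 0.06 SE, adjusted p = 7.13e-08). The glucose importer Slc2a1 and the hexokinase Hk2 rose by 1.62 and 1.55. Cholesterol and fatty acid synthesis had 4 genes higher and 8 lower of 22 (median -0.20, or -0.88 by TPM and -0.41 by quantile normalization). The counts were 3 higher and 17 lower by TPM and 4 higher and 13 lower by quantile normalization. Over all 11421 genes TPM gave 1450 higher and 7094 lower, and quantile normalization 2441 and 3944. As deposited, the shares over all genes were 30.7% higher and 26.8% lower. Insig1, which holds back the sterol factor SREBP, was higher by 1.72. Scd2, a fatty acid desaturase, fell from 11.1 and 10.6 to 2.07 and 2.41 FPKM (log2 change -1.87 ± 0.09 SE, adjusted p = 5.35e-06). In the list of sterol efflux and LXR targets 4 of 11 were higher and 3, Abca1, Nr1h3 and Soat1, lower, near the shares of all genes (30.7% and 26.8%). Ch25h, which makes the antiviral 25-hydroxycholesterol, went from 0.162 and 0 to 40.7 and 42.7 FPKM, below 98 and 98.9 in PBS 3 h (log2 change from untreated cells 5.31). The cholesterol exporter Abcg1 rose by 1.69, while the exporter Abca1 fell by 0.48. Npc2, which hands cholesterol out of lysosomes, had a change of 1.01 that quantile normalization turned to -0.01.

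Lysosome genes were higher in 19 of 25 and lower in 2, Mcoln1 and Tfeb, with a median of 0.46 that was -0.22 after TPM rescaling and -0.46 after quantile normalization. By count the list then had 3 higher and 16 lower by TPM and 3 higher and 17 lower by quantile normalization. For this and the next lists, the counts over all 11421 genes were 1450 higher and 7094 lower by TPM. By quantile normalization they were 2441 and 3944. Tfec and Tfeb, related factors, moved apart, Tfec from 2.56 and 2.19 to 17.1 and 17.8 FPKM (log2 change 2.45 ± 0.09 SE, adjusted p = 1.39e-06) and Tfeb, the main switch for lysosome genes, from 7.9 and 9.87 to 3.11 and 2.55 FPKM (log2 change -1.37 ± 0.19 SE, adjusted p = 0.00087). The protease Ctsc had 34.2 and 31.8 FPKM in PBS 0 h, 19.9 and 17 in spermine 0 h, 74.9 and 80.3 in spermine 3 h and 226 and 197 in PBS 3 h, so that with both agents it lay between untreated cells and IFN-β alone. The change of Mcoln1, a lysosomal calcium channel (-0.33), was lost without any of the 4 libraries compared (-0.30 to -0.35). Nuclear genes for oxidative phosphorylation were higher in 14 of 22 with none lower (median 0.38, or -0.29 after TPM rescaling and -0.11 after quantile normalization; by TPM 1 higher and 11 lower, by quantile normalization 3 higher and 6 lower), and cytochrome c, Cycs, rose by 1.42. Of 20 tRNA synthetases 11 were higher and 2, Iars and Mars, lower (median 0.32, or -0.33 after TPM rescaling and -0.07 after quantile normalization; by TPM 4 higher and 13 lower, by quantile normalization 7 higher and 8 lower). Wars, for tryptophan, rose from 11.5 and 11.8 to 50.8 and 51.7 FPKM (log2 change 2.05 ± 0.07 SE, adjusted p = 1.18e-06). The call for Mars, for methionine (-0.27), ended without replicate 2 of PBS 0 h (-0.24) or replicate 1 of spermine 3 h (-0.24). Cell cycle and replication genes were higher in 8 of 18 and lower in 3, Mki67, Mcm3 and E2f1, beside 30.7% and 26.8% over all genes. Their median of 0.10 was -0.36 after TPM rescaling, with 6 higher and 9 lower. Cyclins Ccnd1 and Ccnd2 rose by 2.21 and 1.63. Ccnd2 had 2.22 and 2.99 FPKM in spermine 3 h and 11.1 and 11.3 in PBS 3 h.

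Macrophage identity genes were split on the deposited scale, with 11 of 27 higher and 7 lower, near the shares of all genes (30.7% and 26.8%). Their median of 0.21 was -0.47 after TPM rescaling and -0.56 after quantile normalization. By count the list then had 3 higher and 19 lower by TPM and 3 higher and 19 lower by quantile normalization. Over all 11421 genes TPM also gave mostly lower calls, with 1450 higher and 7094 lower, and quantile normalization gave 2441 and 3944. Csf1, the growth factor of macrophages, had 1.29 and 1.04 FPKM in PBS 0 h, 7.03 and 6.51 in spermine 0 h, 32.1 and 32.2 in PBS 3 h and 24.5 and 26.4 in spermine 3 h (log2 change from untreated cells 3.61 ± 0.08 SE, adjusted p = 1.72e-07). Cx3cr1, the fractalkine receptor, had 11.5 and 11.5 FPKM in PBS 0 h and less than 2 in each of the other 6 libraries, with 1.33 and 1.32 in spermine 0 h, 1.84 and 1.58 in PBS 3 h and 1.52 and 1.86 in spermine 3 h. The 3 treated groups were close to each other and far below untreated cells (log2 change of spermine 3 h -2.22 ± 0.10 SE, adjusted p = 2.83e-06). Tgfbr1, a TGF-β receptor, went from 49.1 and 48.7 to 6.85 and 6.55 FPKM (log2 change -2.70 ± 0.10 SE, adjusted p = 1.17e-06). Phagocytic, Fc and scavenger receptors were higher in 14 of 22 and lower in 1, the complement receptor C5ar1 (median 0.67, or -0.01 after TPM rescaling, with 7 higher and 6 lower). The Fc receptors Fcgr1 and Fcgr4 rose by 3.21 and 2.56. Clec4n, a receptor for fungal mannan, had 27.6 and 19.5 FPKM in PBS 0 h, 15.2 and 12 in PBS 3 h, 135 and 130.1 in spermine 0 h and 79 and 80.6 in spermine 3 h (log2 change from untreated cells 1.74 ± 0.17 SE, adjusted p = 0.000151). Among 9 tested genes of alternative activation 7 were higher and 1, Pparg, lower (median 1.37). Il4ra, the IL-4 receptor chain, rose from 19.3 and 20.3 to 79.5 and 78.5 FPKM (log2 change 1.94 ± 0.06 SE, adjusted p = 5.33e-07), and the lectin Clec10a and the factor Klf4 rose by 2.13 and 2.01.

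Among called protein-coding genes of at least 5 FPKM, Gpr183 and Sesn1 fell furthest. Gpr183, which guides cells along oxysterol gradients, had 16.3 and 16.6 FPKM in PBS 0 h, 2.99 and 3.08 in spermine 0 h, 1.71 and 1.99 in PBS 3 h and 0.544 and 0.724 in spermine 3 h (log2 change from untreated cells -3.42 ± 0.09 SE, adjusted p = 3.24e-07). Sesn1 went from 21.8 and 20.1 to 1.27 and 1.25 FPKM (log2 change -3.28 ± 0.09 SE, adjusted p = 3.11e-07). It stood at 2.82 and 2.98 in spermine 0 h and 2.57 and 2.19 in PBS 3 h, so that all treated groups lay far below untreated cells. The torsin-family gene Tor4a, the growth factor Pdgfb and the transcription factor Lyl1 fell by 3.00, by 2.94 and by 2.91. The zinc finger gene Zfp395, the cannabinoid receptor Cnr2 and the pro-apoptotic Bmf fell by 2.83, by 2.81 and by 2.78. Dusp7, a phosphatase of ERK, B3gnt8, a sugar transferase, and AI467606 fell by 2.45, by 2.39 and by 2.45. After TPM rescaling these falls were larger, from -3.34 to -4.70.

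**Figure D4:**
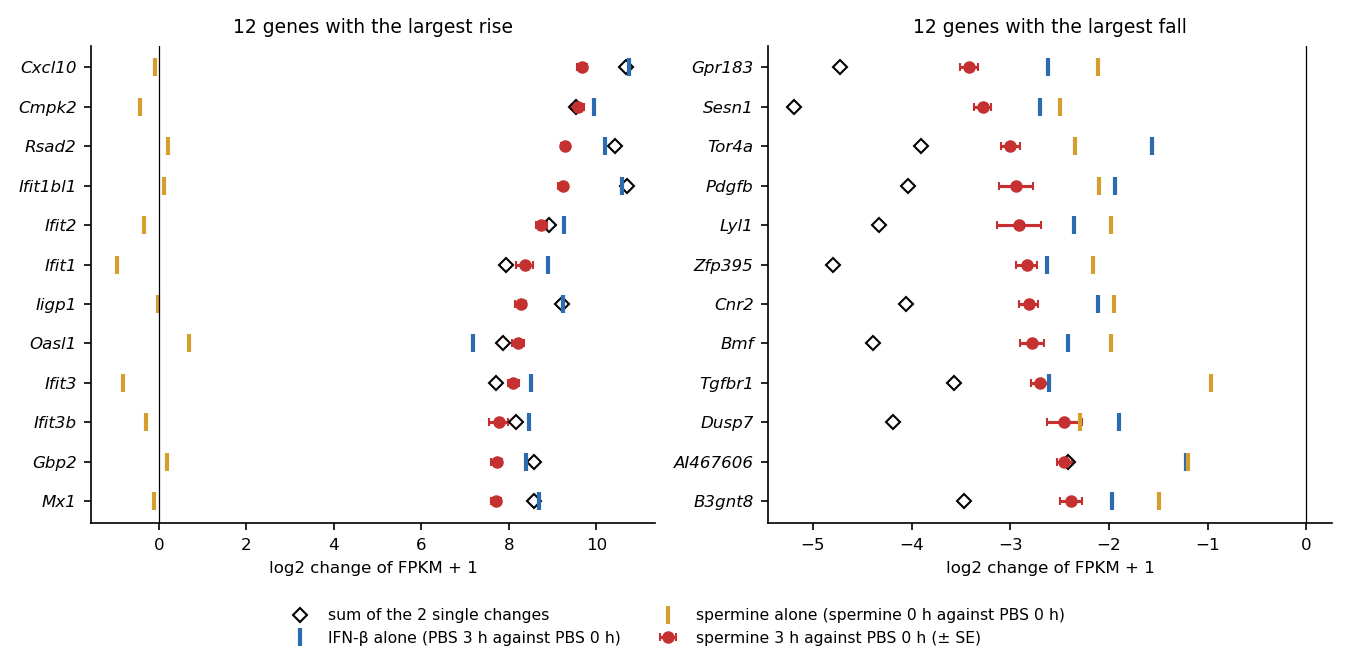
The 12 genes with the largest rise (left) and the largest fall (right) from untreated cells: red points with bars, the log2 change of FPKM + 1 after both agents ± SE; blue and yellow ticks, the changes after IFN-β alone and spermine alone; diamonds, the sum of those 2 changes. For the rises the blue tick lies near the red point and the yellow tick close to 0, while for the falls both ticks lie well below 0, and in 5 of the 12 the diamond lies beyond the furthest fall that this scale allows.

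How did the change with both agents compare with the sum of the 2 single changes? The comparisons share the PBS 0 h libraries, so the difference was tested in the same fit as an interaction. Of all genes, 49.6% were called with IFN-β alone and 41.2% with spermine alone, and between spermine 3 h and its neighbours 41.7% were called against spermine 0 h and 40.5% against PBS 3 h. The interaction passed in 1550 genes (13.6%), with 665 above the sum (5.82%) and 885 below it (7.75%). Without spermine 3 h replicate 1 the number was 554, and without PBS 0 h replicate 2 it was 520. The genes given next kept the call without each library in turn, after TPM and quantile rescaling, at a pseudocount of 0.1 and in limma voom on the rebuilt reads. Rsad2 changed by 10.19 with IFN-β alone and by 0.22 with spermine alone, against 9.28 with both (departure -1.13, adjusted p = 0.00354). Ccl4 had single changes of 6.45 and 1.32 against 5.79 (departure -1.97, adjusted p = 0.00219). Csf1 had 3.94 and 1.84 against 3.61 (departure -2.17, adjusted p = 0.00122), and Cd274 had 5.24 and 1.70 against 5.72 (departure -1.22, adjusted p = 0.00377). All 4 thus ended below the sum.

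Genes that fell could depart the other way. Cx3cr1 changed by -2.21 with IFN-β alone, by -2.43 with spermine alone and by -2.22 with both (departure 2.42, adjusted p = 0.00122). Sesn1 changed by -2.70, by -2.49 and by -3.28 (departure 1.92, adjusted p = 0.00132). Both stood under 3 FPKM after either agent, and the sum lies beyond the furthest fall that log2(FPKM + 1) allows (-3.65 for Cx3cr1, -4.46 for Sesn1), so part of these departures is fixed by the scale. At a pseudocount of 0.1, where the sum is within reach, the departure was 3.01 for Cx3cr1 (adjusted p = 0.0017) and 1.95 for Sesn1 (adjusted p = 0.00217). Tap1 changed by 3.85 with IFN-β alone, by -1.11 with spermine alone and by 3.85 with both (departure 1.11, adjusted p = 0.00717). Its 3 h levels overlapped with and without spermine, whereas at 0 h both spermine libraries were lower. By list, the departure was called below the sum in 12 of 16 chemokines and cytokines and above it in none, and in 10 below and 7 above among the 46 antiviral genes. It was called above the sum in 6 and below in 1 of the 17 receptor, kinase and STAT genes. These counts include genes near 0 FPKM without IFN-β, such as Cxcl10, where log2(FPKM + 1) leaves spermine alone little room to show a change. At a pseudocount of 0.1 the limma departure of Cxcl10 was -0.87 (adjusted p = 0.16, not called), and that of Ccl4 was -2.09 (adjusted p = 0.0029). The list counts were not repeated at that pseudocount.

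Some genes were higher with both agents than in each of the other 3 groups. They were chosen for that order, so their values are a description. Csrnp1, a transcription factor induced by many signals, had 2.78 and 3.11 FPKM in PBS 0 h, 14.1 and 18 in spermine 0 h, 35.8 and 41.6 in PBS 3 h and 159.6 and 148 in spermine 3 h. Zfp36, which destroys mRNAs of inflammatory cytokines, had 95 and 99.1, 226 and 263, 200.4 and 221 and 781 and 745 FPKM in the same order of groups. Gadd45g, a stress-induced growth arrest gene, had 14.4 and 17.2, 38.9 and 57.3, 125 and 176 and 421 and 358 FPKM. The other genes chosen this way were Socs3, Il6 and Hspa1a, given above, Tnfaip6, a matrix-binding inflammatory protein at 4.05 and 4.42 FPKM in spermine 3 h, and Tarm1, an activating myeloid receptor at 9.09 and 7.7 FPKM. In each of these 8 genes, both spermine 3 h libraries lay above all 6 others. Among genes lower than in each other group, Pnisr, a splicing-related gene, had 10.4 and 8.91, 6.33 and 5.47, 5.83 and 4.89 and 2.46 and 2.71 FPKM. The zinc finger genes Zscan26 and Zfp397, the exonuclease Exo5 and Prps1l3, a phosphoribosyl pyrophosphate synthetase relative, were chosen with it, besides Gpr183, Pdgfb and AI467606. Spermine 3 h levels were 2.08 and 2.32 FPKM for Zscan26, 0.933 and 0.841 for Zfp397, 2.06 and 1.31 for Exo5 and 4.07 and 3.14 for Prps1l3.

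**Figure D5:**
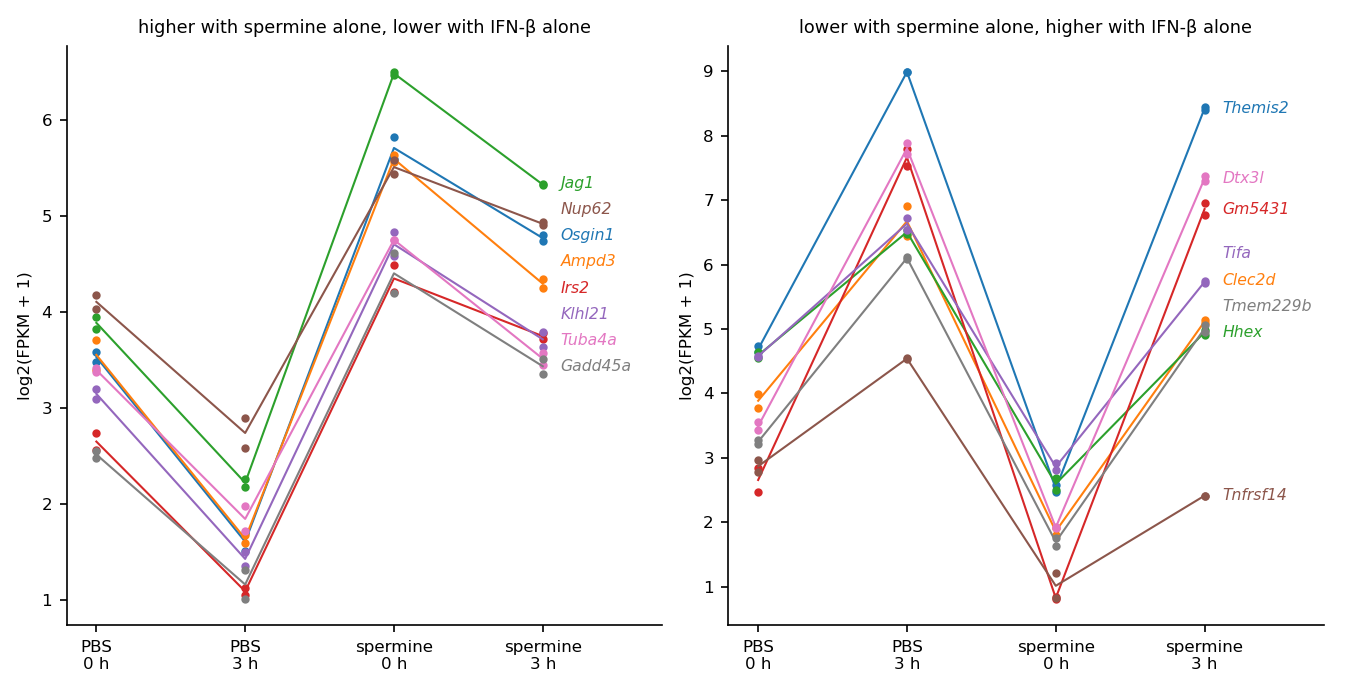
Genes that the 2 agents moved in opposite directions, as log2(FPKM + 1) by group (points, libraries; lines through group means; 0 h and 3 h are hours of IFN-β). On the left spermine 0 h is the highest group and PBS 3 h the lowest, on the right the order is reversed, and in both panels spermine 3 h lies between them.

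The last set was chosen because each agent alone moved the gene by at least 1 log2 unit in opposite directions, so the values are a description with no test. With both agents the levels lay between those with either agent alone. Jag1, a Notch ligand, had 13.2 and 14.4 FPKM in PBS 0 h, 87.3 and 89.4 in spermine 0 h, 3.53 and 3.78 in PBS 3 h and 38.9 and 39.2 in spermine 3 h (log2 change of spermine 3 h from untreated cells 1.44 ± 0.07 SE). Osgin1, an oxidative stress regulator of growth, had 10.1 and 11, 47.1 and 55.6, 1.85 and 2.25 and 26.8 and 25.6 FPKM in the same order. Its change with both agents was 1.24, and that of the insulin signalling adaptor Irs2 was 1.10. Ampd3, which deaminates AMP, Nup62, a nuclear pore protein, and the stress sensor Gadd45a had changes of 0.74, 0.81 and 0.92, or 0.11, 0.17 and 0.36 after TPM rescaling. Klhl21, an adaptor of a ubiquitin ligase, had a change of 0.57 that was -0.05 after TPM rescaling. Tuba4a, an alpha tubulin, ended at 10.9 and 9.91 FPKM against 9.66 and 9.34 in untreated cells (0.12, or -0.54 after TPM rescaling and -0.05 after quantile normalization).

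In the opposite direction, Themis2, a signalling adaptor of myeloid cells, had 25.7 and 23.8 FPKM in PBS 0 h, 4.55 and 4.95 in spermine 0 h, 508 and 507 in PBS 3 h and 337 and 348 in spermine 3 h (log2 change of spermine 3 h from untreated cells 3.74 ± 0.07 SE). Dtx3l, a ubiquitin ligase that pairs with Parp9, and Gm5431, a predicted gene, ended 3.84 and 4.21 above untreated cells. Tmem229b, Clec2d, a ligand of NK cell receptors, and Tifa, an adaptor that senses bacterial sugar metabolites, ended 1.76, 1.23 and 1.15 above. Hhex, a homeobox factor, had 22.4 and 23.9 FPKM in PBS 0 h, 4.66 and 5.45 in spermine 0 h, 91.5 and 88.1 in PBS 3 h and 29 and 30.8 in spermine 3 h. Its change of 0.36 was -0.31 after TPM rescaling and -0.11 after quantile normalization. Tnfrsf14, a receptor that tunes lymphocytes, was the one of the 8 that ended below untreated cells, at 4.32 and 4.31 FPKM against 5.83 and 6.8. Its change was -0.46.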

How the data were processed

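Gene expression was measured by RNA sequencing of poly-A RNA in 8 libraries of mouse bone marrow derived macrophages; the extraction protocol in the labels names blood. The submitters' processing notes list, with no roles, the aligner HISAT2 2.0.5 and the read counter featureCounts 1.5.0-p3, besides DESeq2 1.20.0, fastp and CASAVA 1.8, and the builds GRCm38 and mm10. The values analysed are the FPKM table deposited by the authors; its steps come back as whole reads (100% of values within 0.001), 15723437 to 17744844 per library, scaled by a median-of-ratios factor per library. How strand and shared reads were treated was not given in any source used here.

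Genes with at least 1 FPKM in at least 2 libraries were kept (11421; 9810 protein coding). limma 3.58.1 in R 4.3.3 was fitted to log2(FPKM + 1) with 4 group means and an intensity trend (4 residual degrees of freedom, 2.83 prior). p-values were adjusted by Benjamini-Hochberg over all genes tested, and genes with an adjusted p under 0.05 were called. The departure from the sum is spermine 3 h minus PBS 3 h minus spermine 0 h plus PBS 0 h. The script was tested on simulated data.

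The members and gene lists were chosen with earlier results of these data known. Genes were named by rule: 22 always; the 12 largest rises and falls among called protein-coding genes with groups that do not overlap and a mean of at least 5 FPKM in the higher group; up to 3 called genes per list and up to 2 against its direction; up to 8 above, 8 below and 8 opposed each way. Some of these genes are not reported here. Alternatives were TPM and quantile scaling, a pseudocount of 0.1, no filter, a filter at 5 FPKM, no trend, only the 2 groups, limma voom on the rebuilt reads, a replicate block, and leaving out each library.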

Additional observations from a re-analysis of the deposited data

Results flagged for a closer look

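The change with both agents differed from the sum of the 2 single changes in 67 of the genes named here, by the interaction in limma at an adjusted p under 0.05. Over all genes tested it was called in 1550 (13.6%). Most named genes were chosen by rules that favour large changes, so their count does not measure how common departures are. A positive departure is a level above that sum and a negative one a level below it, in log2(FPKM + 1). Among interferon receptor, STAT and feedback genes the departure was 0.44 for Ifnar1, 0.47 for Ifnar2, 0.69 for Ifngr1, 0.71 for Stat2, 0.54 for Irf9 and -1.79 for Socs1. Among antiviral genes and GTPases the departure was -1.13 for Rsad2, -0.88 for Mx1, -1.48 for Ifit1bl1, -0.95 for Iigp1, -0.85 for Gbp2 and -0.68 for Gbp5. Among chemokines, sensors, presentation and inflammatory genes the departure was -0.99 for Cxcl10, -1.97 for Ccl4, -0.70 for Cd40, -0.74 for Ptgs2, 1.11 for Tap1, -1.22 for Cd274, -0.72 for Zbp1 and -0.90 for Ifi205. Among stress response genes the departure was 1.24 for Ddit4, -0.88 for Hspa5 and 0.74 for Herpud1. Among metabolic and lysosomal genes the departure was -1.19 for Pfkfb3, 1.12 for Scd2, -1.73 for Ch25h, 0.54 for Nr1h3, -0.62 for Ctsc, -0.82 for Cycs, -1.02 for Rars and 0.36 for Mars. Among cell cycle and immediate early genes the departure was -0.54 for Cdkn1a, -1.67 for Ccnd2, -0.63 for Fosl1 and 0.70 for Dusp6. Among macrophage surface genes and growth factors the departure was -2.17 for Csf1, 2.42 for Cx3cr1, -1.11 for Fcgr4, 0.77 for C5ar1 and -1.05 for Clec10a. Among the genes with the largest falls the departure was 1.92 for Sesn1, 0.90 for Tor4a, 1.42 for Lyl1, 1.96 for Zfp395, 1.24 for Cnr2, 1.62 for Bmf, 0.88 for Tgfbr1, 1.73 for Dusp7 and 1.08 for B3gnt8. 

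In genes chosen for being highest or lowest with both agents the departure, given as a description, was 1.36 for Il6, 1.22 for Hspa1a, 0.53 for Zfp36, 0.72 for Tnfaip6, 1.31 for Gpr183, 1.10 for Pdgfb and -0.81 for Prps1l3. In genes chosen because the agents moved them oppositely the departure, given as a description, was 0.98 for Osgin1, 0.62 for Ampd3, 0.51 for Jag1, 0.96 for Irs2, 0.73 for Klhl21, 0.77 for Nup62, 1.60 for Themis2, 1.03 for Gm5431, 0.82 for Tifa, 1.10 for Dtx3l and 0.46 for Tmem229b. For Gpr183, Sesn1, Zfp395, Bmf, Dusp7 and Cx3cr1 the sum lies beyond the furthest fall that log2(FPKM + 1) allows, so part of the positive departure is fixed by the scale. At a pseudocount of 0.1, where no sum of the 67 does so, these departures were 0.98, 1.95, 2.26, 1.70, 1.90 and 3.01, all called. Of the 67, 29 to 57 kept the call without 1 library (29 without spermine 3 h replicate 1), 61 after quantile normalization, 56 after TPM rescaling, 55 at a pseudocount of 0.1, 52 in limma voom on the rebuilt reads and 39 with no filter on low values. With a replicate block 65 kept it, and Irf9 and Fosl1 lost it. The sign changed in voom for Gbp5 (0.24), Il6 (-1.15), Ifi205 (0.10) and Tnfaip6 (-2.35), and at the pseudocount of 0.1 for Tnfaip6 (-0.62).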

How the results depend on the processing

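The main limit is the scale: the share of called genes that were higher was 53.4% as deposited and 17.0% after TPM rescaling, which gave 1450 higher and 7094 lower. A filter at 5 FPKM, with 7055 genes tested, gave 2985 higher and 1586 lower, so that 65.3% of called genes were higher. Leaving out 1 library gave 5164 to 6709 calls for spermine 3 h against PBS 0 h (2848 to 3614 higher, 2316 to 3095 lower). It gave 4318 to 5676 for PBS 3 h against PBS 0 h, 2999 to 4897 for spermine 0 h against PBS 0 h (2999 without PBS 0 h replicate 2), 2912 to 4645 for spermine 3 h against PBS 3 h (2912 without spermine 3 h replicate 1) and 3180 to 4923 for spermine 3 h against spermine 0 h. The departure from the sum ranged from 520 to 1671 calls. It had 647, 520, 886, 753, 554 and 627 without PBS 0 h replicate 1 or 2, PBS 3 h replicate 1, spermine 0 h replicate 1, and spermine 3 h replicate 1 or 2. Leaving out a library leaves fewer samples and 1 library in its group, which is then assumed to vary like the others.

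After TPM rescaling the median change turned negative in the lists for receptors, kinases and STATs (-0.17), MHC class II (-0.0554), the unfolded protein response (-0.19), glycolysis (-0.13), LXR targets (-0.23), lysosome (-0.22), cell cycle (-0.36), polyamines (-0.16), macrophage identity (-0.47), phagocytic receptors (-0.0078), tRNA synthetases (-0.33) and oxidative phosphorylation (-0.29). Quantile normalization turned those for receptors, kinases and STATs (-0.0523), the unfolded protein response (-0.0893), glycolysis (-0.0325), LXR targets (-0.15), lysosome (-0.46), macrophage identity (-0.56), tRNA synthetases (-0.0691) and oxidative phosphorylation (-0.11). Single genes that turned were Jak1 (-0.30 by TPM, -0.19 by quantile), Ifnar2 (-0.17, -0.081), Hhex (-0.31, -0.11), Tuba4a (-0.54, -0.0537), Klhl21 (-0.0543 by TPM), Calr (-0.18 by quantile) and Npc2 (-0.0109 by quantile). Of the other values of single genes and lists under the alternatives, 2894 kept direction and side of the threshold, 50 lost the call, 3 gained it and 92 moved by more than the spread.

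Replicate numbers were not taken as a pairing, since the sources used here do not say whether same-numbered libraries share an animal or culture. Deviations of same-numbered libraries correlated at 0.23 to 0.37 among PBS 0 h, PBS 3 h and spermine 0 h. With spermine 3 h they correlated at -0.06 for PBS 0 h, -0.09 for PBS 3 h and -0.13 for spermine 0 h. A shared source in some groups was not tested. With a replicate block, 6842 genes were called for spermine 3 h against PBS 0 h, 5956 for PBS 3 h against PBS 0 h, 5033 for spermine 3 h against spermine 0 h, 4996 for spermine 0 h against PBS 0 h, 4978 for spermine 3 h against PBS 3 h and 1813 for the departure. The fit of only 2 groups was run for spermine 3 h against PBS 0 h alone.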

Other observations

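These families were chosen after their values were seen. Of 221 tested genes named Zfp, mostly DNA-binding zinc finger proteins, 134 were lower with both agents and 22 higher (median log2 change -0.57, or -1.33 after TPM rescaling and -0.54 after quantile normalization; 11 higher and 185 lower by TPM). Of 45 genes of the Zbtb, Zkscan and Zscan families, which are zinc finger transcription factors, 27 were lower and 8 higher (median -0.45). The deposited counts stand beside 26.8% lower and 30.7% higher over all genes tested. By TPM all 11421 genes gave 7094 lower and 1450 higher. Of 75 cytosolic ribosomal protein genes 62 were higher and 1 lower, with a median of 0.55 that was -0.12 after TPM rescaling and -0.32 after quantile normalization, and TPM rescaling gave 0 higher and 18 lower. No gene of the 13 protein-coding genes of mitochondrial DNA was called on the deposited scale, while 8 were lower after TPM rescaling. Among 167 long intergenic RNA genes 65 were lower and 30 higher (median -0.24), and among 630 processed pseudogenes, which can share reads with their parent genes, 202 were higher and 28 lower. The median gene length was 4647 bases in the genes called lower, 3621 in those called higher and 3826 over all tested, and the part of length in these counts was not tested.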
